A study of Mus musculus with 4 samples.

Results

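The genes described here are 4 receptors and 6 ligands of the platelet-derived growth factor (PDGF) and fibroblast growth factor (FGF) families in mouse brown preadipocytes: Pdgfra, Pdgfrb, Fgfr1, Fgfr2, Pdgfa, Pdgfb, Pdgfc, Fgf2, Fgf7 and Fgf10. They were chosen by name, with earlier results of these data known, and are 10 of the 22463 gene symbols in the files. Each is represented by its RefSeq transcript with most reads over the 4 libraries. In RPKM, the reads on a transcript scaled to its exon length and to the mapped reads of the library, 8 of the 10 were above 1 in at least 1 library, as were 11861 genes in all. Pdgfb and Fgf10 stayed below 1 RPKM in every library.

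RNA-Seq was done on an immortalized line of brown preadipocytes that carries SV40 large T antigen and came from interscapular brown fat of E18.5 embryos on the C57BL/6J background. The cells were Mll3-/-;Mll4 f/f, so the histone methyltransferase MLL3 was lacking in every library, controls included. Adenovirus expressing GFP (Ad-GFP) left the floxed Mll4 alleles in place, and the labels call these cells WT. Adenovirus expressing Cre (Ad-Cre) removed exons 16 to 19 of Mll4, which gives Mll3-/-;Mll4-/- cells. RNA was taken on day 0, 2 days after confluence, and on day 2 of differentiation in a cocktail of insulin, T3, indomethacin, dexamethasone and IBMX. A single line was used and 1 library was made per condition, so the ratios below compare libraries and carry no test. Intervals are exact binomial 95% intervals of the read counts and cover counting error alone.

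PDGF receptors are tyrosine kinases of mesenchymal cells. PDGF-A and PDGF-C act mainly through PDGFRα, and PDGF-B through both receptors. PDGFRα and PDGFRβ mark the stromal cells of adipose tissue that include adipocyte progenitors, and activation of PDGF receptors is known to hold preadipocytes back from differentiation. FGF receptors are tyrosine kinases that bind FGFs together with heparan sulfate: FGF7 and FGF10 signal mainly through the epithelial splice form of FGFR2, FGF2 mainly through FGFR1 and the mesenchymal splice forms, and FGF21 needs the co-receptor β-Klotho.

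The 250 bases before the start site are shown for Pdgfra, Pdgfc, Fgfr2 and Fgf7, whose levels differed most between libraries among the members with at least 100 reads that the promoter table holds. The sequences come from RefSeq promoters of build GRCm38.p6, read 5′ to 3′ on the strand of the gene, and each matched NCBI37/mm9, the build of the files, exactly and in 1 place. On that build they lie at chr5:75548026-75548275 on the plus strand (Pdgfra), chr3:80840088-80840337 on the plus strand (Pdgfc), chr7:137410323-137410572 on the minus strand (Fgfr2) and chr2:125860144-125860393 on the plus strand (Fgf7). Capitals mark matches to the motifs named in the next paragraph.
Pdgfra: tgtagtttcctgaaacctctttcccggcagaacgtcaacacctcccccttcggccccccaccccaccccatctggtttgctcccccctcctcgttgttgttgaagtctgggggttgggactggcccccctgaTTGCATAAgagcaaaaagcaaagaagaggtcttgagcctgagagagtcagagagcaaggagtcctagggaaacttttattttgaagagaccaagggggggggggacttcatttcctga
Pdgfc: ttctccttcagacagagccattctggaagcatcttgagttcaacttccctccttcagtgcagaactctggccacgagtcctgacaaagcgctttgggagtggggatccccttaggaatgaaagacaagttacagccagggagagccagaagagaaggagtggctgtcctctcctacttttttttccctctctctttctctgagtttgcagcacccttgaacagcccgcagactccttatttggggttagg
Fgfr2: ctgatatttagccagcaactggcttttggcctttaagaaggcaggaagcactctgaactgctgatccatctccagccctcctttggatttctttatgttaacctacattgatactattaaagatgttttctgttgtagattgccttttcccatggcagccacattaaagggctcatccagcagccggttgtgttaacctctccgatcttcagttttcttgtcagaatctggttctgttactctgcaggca
Fgf7: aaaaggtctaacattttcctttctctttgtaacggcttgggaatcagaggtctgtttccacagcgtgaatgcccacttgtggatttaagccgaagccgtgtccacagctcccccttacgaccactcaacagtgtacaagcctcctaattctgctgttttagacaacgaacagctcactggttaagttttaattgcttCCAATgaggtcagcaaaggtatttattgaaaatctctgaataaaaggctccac

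Motifs were searched on both strands from 250 bases before to 50 bases after the start site, in these promoters and in all 32851 promoters of the table. TATAAA, the TATA box, occurred in none of the 4 and in 13.6% of all promoters. CCAAT occurred in Fgf7, at position -53 from the start site, and in 37.4% of all. GGGCGG, the GC box, occurred in none of the 4 and in 35.7% of all. TGACGTCA, the cyclic AMP response element, occurred in none of the 4 and in 1.79% of all. TTGCNNAA, a core that C/EBP factors can bind, occurred in Pdgfra alone among the 4, at positions -118 and 13, and in 10.8% of all. The Pdgfra, Pdgfc, Fgfr2 and Fgf7 windows held 51%, 55%, 43.7% and 45.7% G and C bases and 5, 8, 4 and 11 CpG dinucleotides, against medians of 52.7% and 7 over all promoters. A match of letters is a description and shows no binding.

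Between 17198448 and 22986362 reads were mapped per library. The Ad-Cre day 2 library stood apart from the others. Its counts summed over all transcripts came to 87.8% of its mapped reads, against 96.1% to 99.4%, and its ratios moved with transcript length. A read can be counted on several transcripts of a gene, so these sums are not shares of the mapped reads. Among genes above 1 RPKM, the median Ad-Cre/Ad-GFP log2 ratio on day 2 was 0.37 for transcripts of up to 1712 bases and -0.61 for those of 4176 bases or more. At day 0 the medians for short and long transcripts were -0.12 and 0.01. For the members, ratios with that library are therefore also given after division by their trend over length where this turned a direction or crossed the 2.5-fold cutoff. Ratios of other genes are given as measured. Counts over the whole Mll4 transcript ran from 15.7 to 18.7 RPKM and cannot show the deletion of 4 exons. Of the 8 adipocyte markers, summed RPKM was 30.4 and 15.7 on day 0 in Ad-GFP and Ad-Cre-infected cells and 1999 and 490 on day 2, with Cidea at 0 and Ucp1 at no more than 1 read in every library. Endothelial and epithelial markers summed to at most 0.225 RPKM, and the 4 macrophage markers to 2.26 and 2.57 RPKM on day 0 and to 0.487 and 1.13 on day 2 in Ad-GFP and Ad-Cre-infected cells. Most of the macrophage sum was Cd14 (0.465 to 2.53 RPKM), Csf1r had at most 16 reads, and Ptprc and Adgre1 had none in any library. In bulk RNA, fewer cells of a type and less RNA per cell cannot be told apart.

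**Figure D1:**
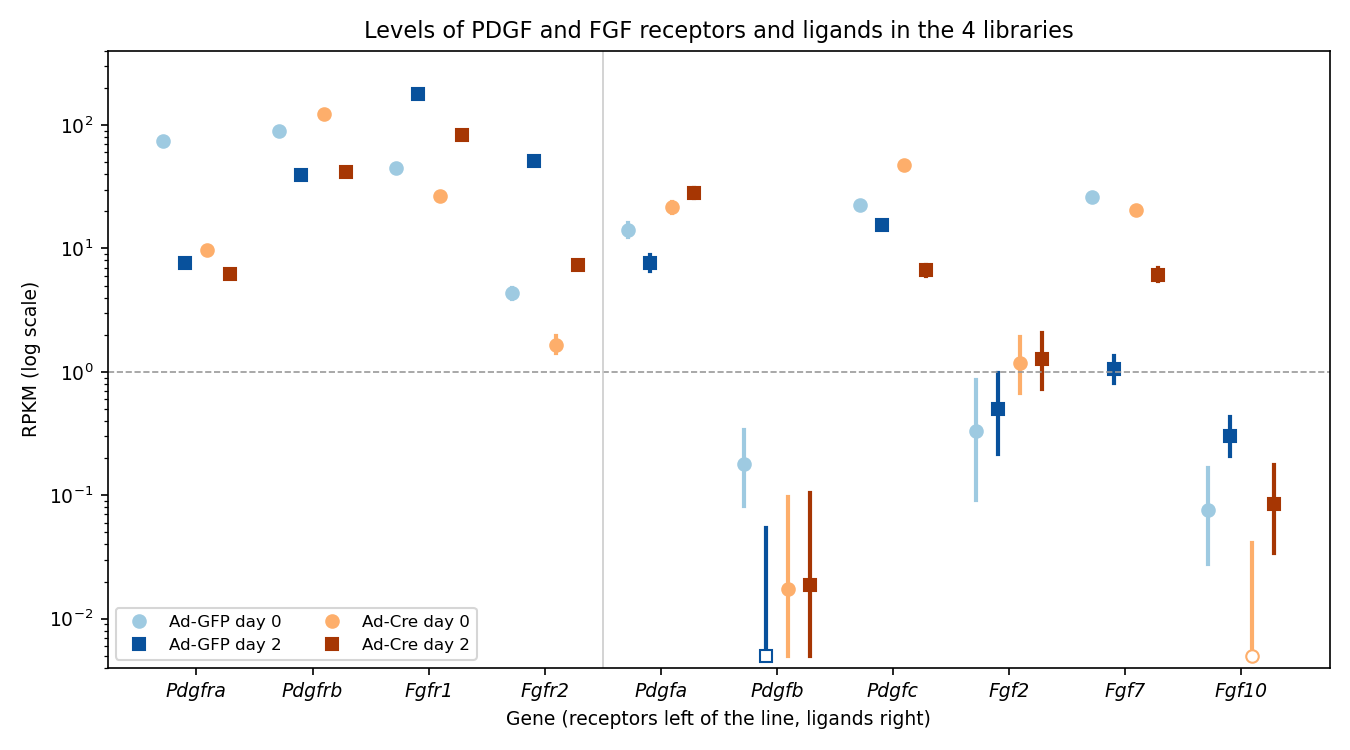
RPKM on a log axis of the 4 receptors (left of the grey line) and 6 ligands (right) in the 4 libraries, with day 0 as circles, day 2 as squares, Ad-GFP in blue and Ad-Cre in orange. Bars are exact Poisson 95% intervals of the reads, open symbols at the foot of the axis are libraries with no read, and the dashed line is 1 RPKM. Pdgfra was high in the Ad-GFP day 0 library alone, Fgfr2 was highest in the Ad-GFP day 2 library, and Pdgfb and Fgf10 were below the line throughout.

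Pdgfra, the receptor for PDGF-A and PDGF-C (NM_001083316, chr5:75548316-75594229, plus strand), was at 73.6 RPKM in Ad-GFP-infected cells on day 0, 7.63 in Ad-GFP-infected cells on day 2, 9.72 in Ad-Cre-infected cells on day 0 and 6.25 in Ad-Cre-infected cells on day 2. The Ad-GFP day 0 library was the only one with a high level, and the other 3 lay between 6.25 and 9.72. Pdgfra thus fell 9.65-fold from day 0 to day 2 in Ad-GFP-infected cells (log2 ratio -3.27, 95% interval -3.36 to -3.18). In Ad-Cre-infected cells the 2 days differed by a log2 ratio of -0.64 (-0.77 to -0.51), and division by the length trend brought this to -0.03. At day 0, before the cocktail was given, Pdgfra was 7.57-fold lower in Ad-Cre-infected cells relative to Ad-GFP-infected cells (-2.92, -3.01 to -2.83). Only 93 of the 11772 expressed genes with reads in both day 0 libraries had a lower ratio. At day 2 the Ad-Cre/Ad-GFP log2 ratio was -0.29 (-0.42 to -0.15), and 0.40 after division by the length trend, so its direction depended on that step.

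Other markers of preadipocytes and of contractile cells also differed between the day 0 libraries. Dlk1, the preadipocyte factor 1, was at 141 RPKM in Ad-GFP and 10.2 in Ad-Cre-infected cells on day 0, Cd34 at 11.1 and 0.352, and Ly6a at 9.90 and 0.248. All 3 were lower in the Ad-Cre library, as Pdgfra was, whereas Pdgfrb was not. Over all 8 preadipocyte markers measured, Pdgfra and Pdgfrb included, 7 were above 1 RPKM in Ad-GFP and 4 in Ad-Cre-infected cells on day 0, and their summed RPKM was 339 and 150. The 7 pericyte and smooth muscle markers went the other way, with a summed RPKM of 789 in Ad-GFP and 2551 in Ad-Cre-infected cells on day 0. Most of that sum was smooth muscle actin (Acta2, 770 and 2428 RPKM), and Mcam (12.6 and 96.4) and Myh11 (0.626 and 10.8) were higher in the Ad-Cre library too, while the pericyte markers Abcc9 and Kcnj8 had at most 1 read in any library. The part of these differences in the Pdgfra ratio was not tested.

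Pdgfrb, the receptor that binds PDGF-B (NM_001146268, chr18:61204804-61244715, plus strand), was at 89.9 RPKM on day 0 and 39.3 on day 2 in Ad-GFP-infected cells, and at 123 and 41.9 in Ad-Cre-infected cells. It was lower on day 2 than on day 0 with either virus. Its log2 ratio of day 2 to day 0 was -1.19 (-1.24 to -1.14) in Ad-GFP-infected cells, short of 2.5-fold, and -1.56 (-1.61 to -1.51) in Ad-Cre-infected cells, past it. Division by the length trend brought these to -1.35 and -1.09, so that the former was past 2.5-fold and the latter short of it. The Ad-Cre/Ad-GFP log2 ratio was 0.45 (0.41 to 0.49) on day 0 and 0.09 (0.03 to 0.15) on day 2, the latter 0.71 after division by the length trend. The ratio of the inductions, the day ratio in Ad-Cre-infected cells over that in Ad-GFP-infected cells, was 2.63 on the log2 scale for Pdgfra (2.47 to 2.79) and -0.36 for Pdgfrb (-0.44 to -0.29), against a median of -0.09 over all expressed genes. Division by the length trend brought these to 3.35 and 0.26, so the direction for Pdgfrb depended on that step.

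The balance of the PDGF receptors followed from these levels. Pdgfra made up 45.0% of the summed Pdgfra and Pdgfrb RPKM in Ad-GFP-infected cells on day 0 (95% interval 44.3 to 45.8) and 16.2% on day 2 (15.4 to 17.1). In Ad-Cre-infected cells it made up 7.31% on day 0 (6.92 to 7.72) and 13.0% on day 2 (12.1 to 13.9). The sum itself was 163.5 and 132.9 RPKM on day 0 and 47.0 and 48.1 on day 2, in Ad-GFP and Ad-Cre-infected cells. PDGF receptor RNA in total was thus lower on day 2 with either virus, and what set the Ad-GFP day 0 library apart was the share of Pdgfra.

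Fgfr1, the main FGF receptor of preadipocytes (NM_010206, chr8:26624126-26686186, plus strand), was at 45.2 RPKM on day 0 and 177.5 on day 2 in Ad-GFP-infected cells, and at 26.5 and 83.8 in Ad-Cre-infected cells. It was higher on day 2 with either virus and lower in the Ad-Cre library on either day. It rose 3.93-fold from day 0 to day 2 in Ad-GFP-infected cells (log2 ratio 1.97, 1.92 to 2.02) and 3.16-fold in Ad-Cre-infected cells (1.66, 1.6 to 1.73). Its Ad-Cre/Ad-GFP log2 ratio was -0.77 (-0.84 to -0.70) on day 0 and -1.08 (-1.12 to -1.04) on day 2, neither past 2.5-fold. Division by the length trend brought the value on day 2 to -0.51. The ratio of the inductions was -0.31 (-0.39 to -0.23), and 0.25 after division by the length trend.

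Fgfr2 (NM_010207, minus strand of chromosome 7) encodes a receptor whose epithelial splice form binds FGF7 and FGF10. Counted without regard to splice form, it was at 4.35 RPKM on day 0 and 50.9 on day 2 in Ad-GFP-infected cells, and at 1.67 and 7.33 in Ad-Cre-infected cells. The Ad-GFP day 2 library was far above the other 3. Fgfr2 rose 11.7-fold from day 0 to day 2 in Ad-GFP-infected cells (log2 ratio 3.55, 3.40 to 3.70), and 138 of 11760 genes had a higher ratio. In Ad-Cre-infected cells it rose 4.4-fold (2.14, 1.89 to 2.39). It was lower in Ad-Cre-infected cells relative to Ad-GFP-infected cells by 2.61-fold on day 0 (-1.39, -1.65 to -1.12) and by 6.94-fold on day 2 (-2.80, -2.91 to -2.68). The day 0 interval reaches past the 2.5-fold cutoff, and division by the length and GC trend brought that ratio to -1.31, short of it. At day 2 only 50 of 11768 genes had a lower ratio, and the value after division by the length trend was -2.20. The ratio of its inductions was -1.41 (-1.70 to -1.12), and -0.82 after that division. Counts per transcript cannot tell the epithelial from the mesenchymal splice form, and both Fgfr2 transcripts in the files, NM_010207 and NM_201601, gave an Ad-Cre/Ad-GFP log2 ratio on day 2 near each other (-2.80 and -2.78).

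Fgfr1 exceeded Fgfr2 in every library, and Fgfr2 took its largest share in the Ad-GFP day 2 library. Fgfr2 made up 8.78% (7.96 to 9.65) of their summed RPKM on day 0 and 22.3% (21.8 to 22.8) on day 2 in Ad-GFP-infected cells. In Ad-Cre-infected cells the shares were 5.91% (5.07 to 6.84) on day 0 and 8.04% (7.47 to 8.64) on day 2. The sum was 49.6 and 228.4 RPKM on day 0 and day 2 in Ad-GFP-infected cells and 28.2 and 91.2 in Ad-Cre-infected cells. At day 2 the FGF receptors together exceeded the PDGF receptors in both libraries, and on day 0 the order was the reverse.

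**Figure D2:**
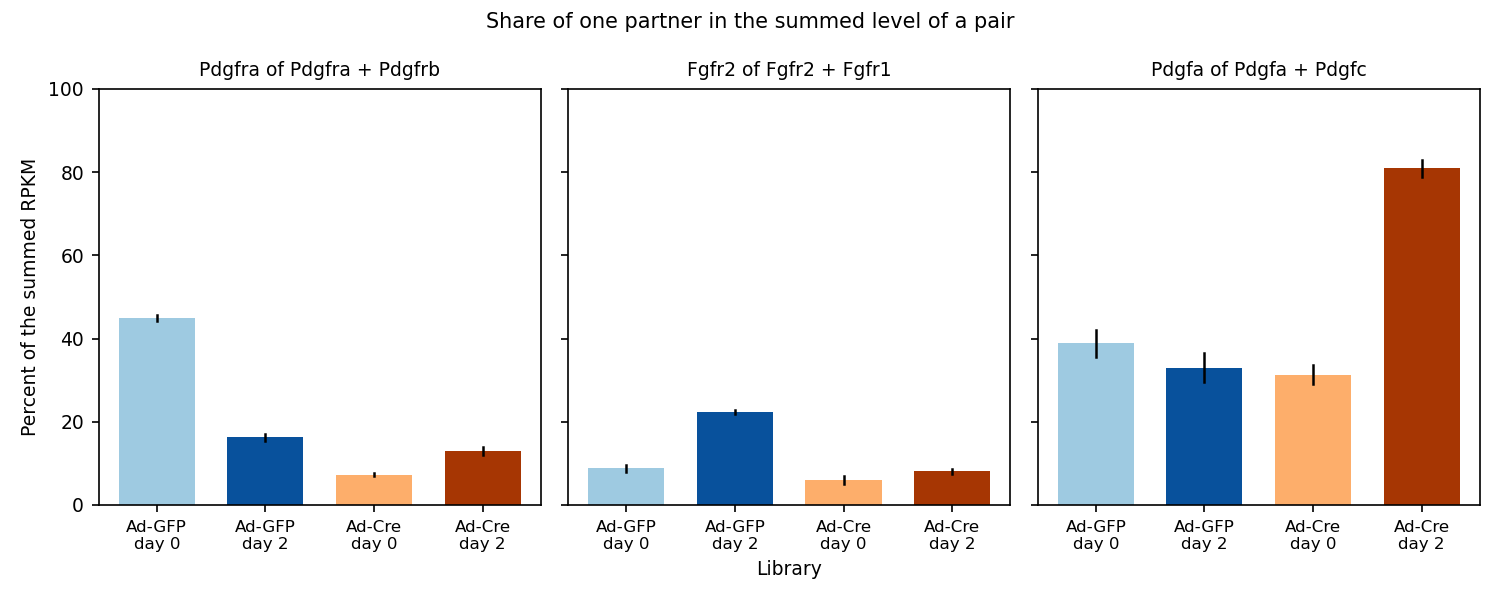
Share, in percent of the summed RPKM, of Pdgfra among Pdgfra and Pdgfrb, of Fgfr2 among Fgfr2 and Fgfr1, and of Pdgfa among Pdgfa and Pdgfc, in each library. Lines are exact binomial 95% intervals, and the 45.0% of Pdgfra in Ad-GFP-infected cells on day 0, the 22.3% of Fgfr2 in Ad-GFP-infected cells on day 2 and the 80.9% of Pdgfa in Ad-Cre-infected cells on day 2 stand out within their panels.

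Of the PDGF ligands, Pdgfc was the more abundant in 3 libraries and Pdgfa in the Ad-Cre day 2 library. Pdgfc, a ligand that must be cleaved before it can act (NM_019971, chr3:80840338-81017962, plus strand), was at 22.3 RPKM on day 0 and 15.4 on day 2 in Ad-GFP-infected cells, and at 47.1 and 6.65 in Ad-Cre-infected cells. The Ad-Cre libraries held both the highest and the lowest level. Pdgfc fell 7.09-fold from day 0 to day 2 in Ad-Cre-infected cells (log2 ratio -2.83, -2.98 to -2.68) and had a log2 ratio of -0.53 (-0.65 to -0.42) in Ad-GFP-infected cells. It was higher in Ad-Cre-infected cells on day 0 (1.08, 0.99 to 1.17) and lower on day 2 (-1.22, -1.38 to -1.06), without passing 2.5-fold on either day. The ratio of the inductions was -2.29 (-2.48 to -2.11), and -1.90 after division by the length trend.

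Pdgfa, which encodes the A chain (NM_008808, chr5:139451968-139473324, minus strand), was at 14.2 RPKM on day 0 and 7.59 on day 2 in Ad-GFP-infected cells, and at 21.5 and 28.2 in Ad-Cre-infected cells. It was higher in the Ad-Cre library on either day. Its Ad-Cre/Ad-GFP log2 ratio was 0.60 (0.37 to 0.83) on day 0 and 1.89 (1.65 to 2.15) on day 2, the latter past 2.5-fold. The log2 ratio of day 2 to day 0 was -0.91 (-1.19 to -0.62) in Ad-GFP-infected cells and 0.39 (0.20 to 0.58) in Ad-Cre-infected cells, and the latter became -0.28 after division by the length trend. Pdgfa made up 38.9%, 33.0% and 31.3% of the summed Pdgfa and Pdgfc RPKM in the Ad-GFP day 0, Ad-GFP day 2 and Ad-Cre day 0 libraries and 80.9% (78.8 to 82.9) in the Ad-Cre day 2 library. The Pdgfa transcript has 1015 bases of exon and that of Pdgfc 3512, and division by the length trend brought their Ad-Cre/Ad-GFP log2 ratios on day 2 from 1.89 to 1.46 and from -1.22 to -0.85. In GENCODE vM1, 813 bases of the annotated exons of Pdgfa, all transcripts joined, overlap exons of 6330403L08Rik on the other strand. These are 26.1% of the joined exon bases, and the share of the counted transcript was not computed. Whether the counting used strand is not given in the sources used here.

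Pdgfb, the ligand of both PDGF receptors (NM_011057, chr15:79826330-79845238, minus strand), had 9 reads in Ad-GFP-infected cells on day 0, none on day 2, and 1 read on either day in Ad-Cre-infected cells. These counts correspond to at most 0.178 RPKM. The 95% interval of the log2 ratio of day 2 to day 0 in Ad-GFP-infected cells had its upper bound at -1.40. The receptors were thus measured in cells with little RNA for this ligand.

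Fgf7, the keratinocyte growth factor (NM_008008, chr2:125860394-125916921, plus strand), was the most abundant of the 3 FGF ligands. It was at 26.3 RPKM on day 0 and 1.06 on day 2 in Ad-GFP-infected cells, and at 20.3 and 6.14 in Ad-Cre-infected cells. The day 0 libraries were near each other, and the Ad-GFP day 2 library was the lowest. Fgf7 fell 24.8-fold from day 0 to day 2 in Ad-GFP-infected cells (log2 ratio -4.63, -5.02 to -4.27), where 109 of 11760 genes had a lower ratio. In Ad-Cre-infected cells it fell 3.31-fold (-1.73, -1.92 to -1.54). The Ad-Cre/Ad-GFP log2 ratio was -0.37 (-0.49 to -0.25) on day 0, and on day 2 Fgf7 was 5.80-fold higher in Ad-Cre-infected cells (2.54, 2.15 to 2.95). The ratio of the inductions was 2.91 (2.5 to 3.34), and 3.07 after division by the length trend.

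Fgf2, basic FGF (NM_008006, annotated gene span chr3:37211441-37304299, plus strand), and Fgf10, a relative of Fgf7 with the same main receptor (NM_008002, annotated gene span chr13:119458598-119580922, plus strand), had few reads. Fgf2 had 4 reads on day 0 and 8 on day 2 in Ad-GFP-infected cells, and 16 on either day in Ad-Cre-infected cells, which correspond to 0.335, 0.501, 1.18 and 1.28 RPKM. Its Ad-Cre/Ad-GFP log2 ratio was 1.82 (0.19 to 3.86) on day 0 and 1.35 (0.04 to 2.78) on day 2, so the ratio passed 2.5-fold on both days while its interval reached to near equality. Division by the length trend brought the ratio on day 2 to 0.84, short of 2.5-fold, and the log2 ratio of day 2 to day 0 in Ad-Cre-infected cells from 0.11 to -0.68. Its annotated exons, all transcripts joined, share 242 bases, 13.4% of them, with Nudt6 on the other strand. The share of the counted transcript was not computed. Fgf10 had 6 reads on day 0 and 32 on day 2 in Ad-GFP-infected cells, and 0 and 7 in Ad-Cre-infected cells, or at most 0.304 RPKM. On day 0, the 95% interval of the Ad-Cre/Ad-GFP log2 ratio had its upper bound at -0.42. At day 2 the log2 ratio was -1.84 (-3.27 to -0.64).

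The share of all expressed genes past 2.5-fold gives the background for these counts, which are over the 8 members above 1 RPKM. From day 0 to day 2 in Ad-GFP-infected cells, 2 members rose (Fgfr1 and Fgfr2) and 2 fell (Pdgfra and Fgf7), while 8.43% of the 11861 genes rose and 13.0% fell. In Ad-Cre-infected cells 2 members rose (Fgfr1 and Fgfr2) and 3 fell (Pdgfrb, Pdgfc and Fgf7), beside 9.61% and 10.4% of genes. At day 0, 1 member was higher in Ad-Cre-infected cells (Fgf2) and 2 were lower (Pdgfra and Fgfr2), beside 2.08% and 4.17% of genes. At day 2, 3 were higher (Pdgfa, Fgf2 and Fgf7) and 1 was lower (Fgfr2), beside 9.59% and 9.87% of genes. Fgf2 was above 1 RPKM in the Ad-Cre libraries alone, so it entered the count through the libraries in which it was higher. With the threshold set on the Ad-GFP libraries, 0 members were higher on day 0 and 2 on day 2, beside 1.27% and 8.14% of genes. A single gene of 8 is 12.5%, so these shares of members are coarse. Each library enters 2 of the 4 comparisons, so the ratios of a gene are not independent of one another.

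**Figure D3:**
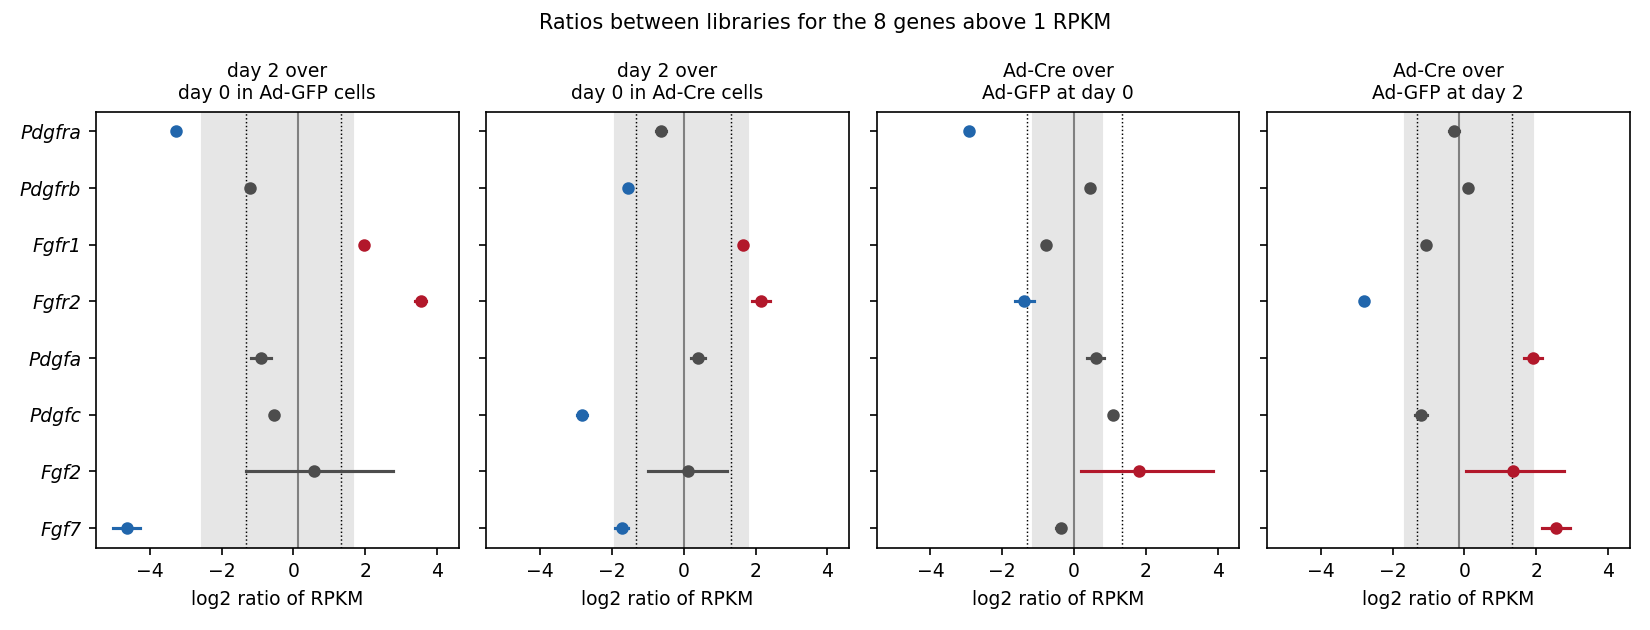
Log2 ratio of RPKM (points) with exact binomial 95% counting intervals (lines) of the 8 members above 1 RPKM in the 4 comparisons. Red and blue points passed 2.5-fold (dotted lines) upwards and downwards, the grey band holds the central 90% of all expressed genes and the grey line their median. Over time in Ad-GFP-infected cells, Pdgfra and Fgf7 lay below the band and Fgfr1 and Fgfr2 above it. Over time in Ad-Cre-infected cells, Pdgfc lay below it and Fgfr2 above it. Between the day 0 libraries, Pdgfra and Fgfr2 lay below it and Pdgfc and Fgf2 above it. Between the day 2 libraries, Fgfr2 lay below it, Fgf7 above it and Pdgfa at its upper edge.

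The order of the levels changed between the libraries. In Ad-GFP-infected cells on day 0 it ran Pdgfrb, Pdgfra, Fgfr1, Fgf7, Pdgfc, Pdgfa, Fgfr2, Fgf2, Pdgfb and Fgf10. Pdgfrb and Pdgfra were above 96.7% and 95.5% of the expressed genes there. At day 2 in Ad-GFP-infected cells Fgfr1 was first, above 99.0% of the expressed genes, followed by Fgfr2 and Pdgfrb, and Pdgfra (7.63 RPKM, 7.19 to 8.08) and Pdgfa (7.59, 6.51 to 8.79) had overlapping intervals. In Ad-Cre-infected cells on day 0 Pdgfrb was first, followed by Pdgfc and Fgfr1, and Pdgfa (21.5, 19.5 to 23.7) and Fgf7 (20.3, 19.1 to 21.6) overlapped, as did Fgfr2 (1.67, 1.42 to 1.94) and Fgf2 (1.18, 0.674 to 1.92). In Ad-Cre-infected cells on day 2 Fgfr1 was first, followed by Pdgfrb and Pdgfa, and Fgfr2, Pdgfc, Pdgfra and Fgf7 lay between 7.33 and 6.14 RPKM, each with an interval that overlapped that of its neighbour in the order.

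Of 10650 genes with enough reads, those with the pattern over the 4 libraries most like each member were found by the distance between profiles of log2 RPKM, centred on their means. For Pdgfra these were Hunk (distance 0.331), Hgf (0.338) and Itga3 (0.408). Hgf, hepatocyte growth factor, was at 3.17 RPKM in Ad-GFP-infected cells on day 0 and at 0.121 to 0.260 in the other 3 libraries. Fgfr1 was most like Rxra (0.141), the nuclear receptor that pairs with PPARγ, at 36.3, 146, 23.6 and 65.4 RPKM in Ad-GFP-infected cells on day 0 and day 2 and in Ad-Cre-infected cells on day 0 and day 2. Fgfr2 was most like Adhfe1 (0.311), Selenop (0.374) and Pi15 (0.445), and Selenop, a secreted selenium carrier, was at 4.90, 55.6, 1.69 and 10.6 RPKM in that order of libraries. Fgf7 was most like Tpm1 (0.452) and Dpysl3 (0.463). Pdgfrb was most like Wsb2 (0.0605), Pdgfa like Map7d3 (0.155) and Pdgfc like 4930503L19Rik (0.288). A likeness over 4 libraries is a description and carries no test.

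The other genes of the pathways were taken from 7 lists with 104 genes, of which 79 were above 1 RPKM. From day 0 to day 2 in Ad-GFP-infected cells 14 of the 79 rose and 23 fell past 2.5-fold, and in Ad-Cre-infected cells 8 rose and 26 fell. Between Ad-Cre and Ad-GFP-infected cells 3 were higher and 4 lower on day 0, and 10 were higher and 12 lower on day 2. These are 17.7% and 29.1% of the 79 from day 0 to day 2 in Ad-GFP-infected cells, against 8.43% and 13.0% of all expressed genes, and 10.1% and 32.9% in Ad-Cre-infected cells, against 9.61% and 10.4%. Between the viruses they are 3.80% and 5.06% on day 0, against 2.08% and 4.17%, and 12.7% and 15.2% on day 2, against 9.59% and 9.87%. The share that rose in Ad-Cre-infected cells was thus near that of all genes. The lists were chosen with earlier results of these data known, so a share above that of all genes can come from the choice. This holds for each list below as well. The median log2 ratio of the 79 was -0.39, -0.70, 0.03 and 0.04 in these comparisons, against 0.13, -0.01, -0.02 and -0.14 over all expressed genes.

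**Figure D4:**
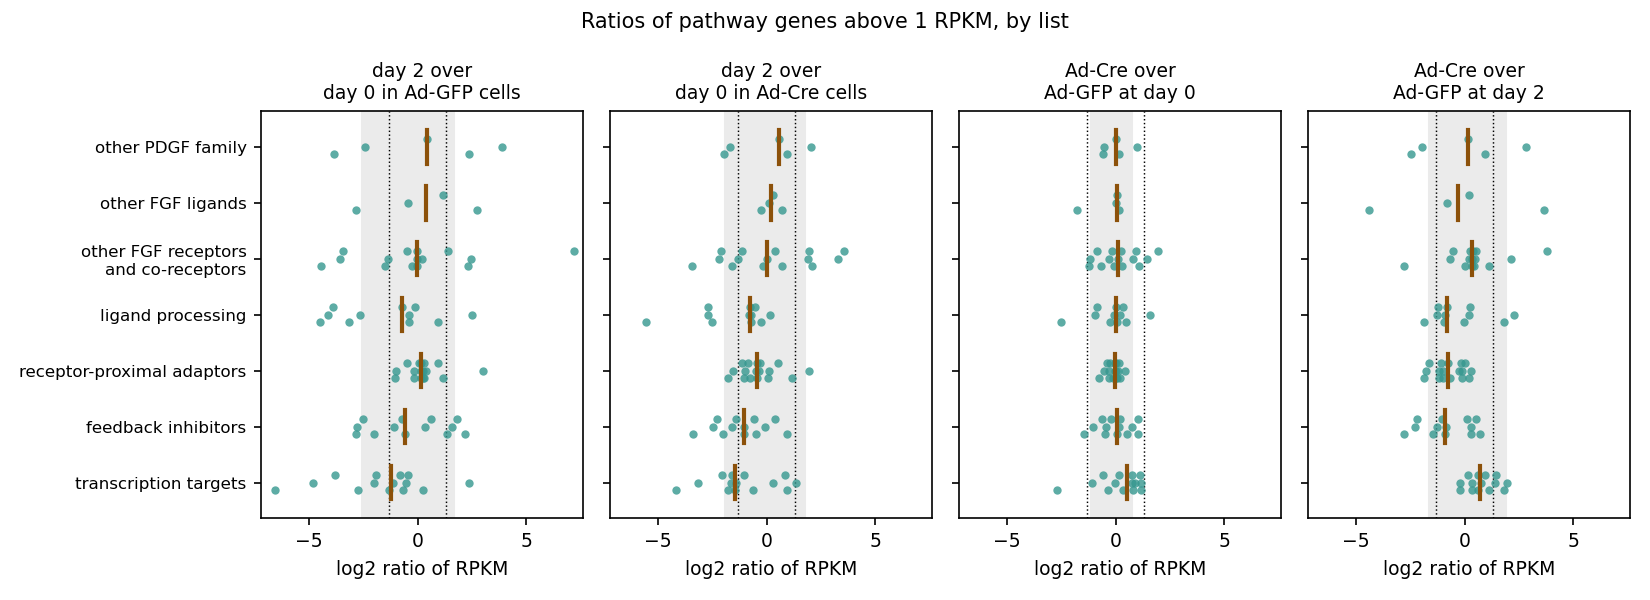
Log2 ratio of RPKM of the 79 pathway genes above 1 RPKM (points, spread vertically for sight only) in the 7 lists and 4 comparisons, with the list medians as brown bars. The grey band holds the central 90% of all expressed genes and dotted lines mark 2.5-fold. The transcription targets had medians of -1.21 and -1.45 from day 0 to day 2 in Ad-GFP and Ad-Cre-infected cells.

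Among the relatives of PDGF and its receptors, 5 of 9 genes were above 1 RPKM, and 2 rose and 2 fell from day 0 to day 2 in Ad-GFP-infected cells. These are 40% each, beside 8.43% and 13.0% of all genes. Vegfa, an angiogenic factor of the same superfamily, was at 39.6 and 207.7 RPKM on day 0 and day 2 in Ad-GFP-infected cells and at 27.2 and 52.9 in Ad-Cre-infected cells. Kitl, the ligand of the receptor KIT, was at 1.27 and 19.1 RPKM in Ad-GFP and at 0.837 and 3.41 in Ad-Cre-infected cells. Both were highest in the Ad-GFP day 2 library, as Fgfr2 was, with log2 ratios of Ad-Cre to Ad-GFP on day 2 of -1.97 and -2.48. Pdgfrl, a PDGF receptor-like protein without a kinase, was at 4.44 and 0.312 RPKM in Ad-GFP and at 8.66 and 2.24 in Ad-Cre-infected cells. Csf1, the macrophage growth factor, was at 81.2 and 15 RPKM in Ad-GFP and at 90.8 and 28.3 in Ad-Cre-infected cells. Pdgfrl and Csf1 fell with either virus.

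Of the 18 other FGF receptors and co-receptors, 15 were above 1 RPKM, and 4 rose and 5 fell from day 0 to day 2 in Ad-GFP-infected cells. These are 26.7% and 33.3%, beside 8.43% and 13.0% of all genes. Klb, which encodes the co-receptor β-Klotho, had 2 reads on day 0 and 388 on day 2 in Ad-GFP-infected cells and 4 and 44 in Ad-Cre-infected cells. It reached 4.91 RPKM in the Ad-GFP and 0.710 in the Ad-Cre day 2 library, a log2 ratio of -2.79. Fgfrl1, an FGF receptor without a kinase, was at 22.8 and 125.5 RPKM in Ad-GFP and at 20.3 and 77.7 in Ad-Cre-infected cells. Both were higher on day 2 with either virus, as Fgfr1 and Fgfr2 were. The cell surface heparan sulfate proteoglycan Sdc3 was at 94.7 and 4.35 RPKM in Ad-GFP and at 59.6 and 5.54 in Ad-Cre-infected cells and fell with either virus. The FLRT proteins, which can bind FGF receptors, did not share a direction. Flrt2 fell in both (6.62 to 0.558 RPKM in Ad-GFP, 3.67 to 0.797 in Ad-Cre-infected cells), Flrt3 fell from 2.28 to 0.211 in Ad-GFP-infected cells and was at 6.27 and 2.90 in Ad-Cre-infected cells, and Flrt1 was at 1.26 and 1.24 in Ad-GFP-infected cells and rose from 0.560 to 5.45 in Ad-Cre-infected cells.

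Of the 12 genes for cleavage of PDGF ligands and for heparan sulfate, 11 were above 1 RPKM, and 5 fell and 1 rose from day 0 to day 2 in Ad-GFP-infected cells. Those that fell are 45.5%, beside 13.0% of all genes, and the 1 that rose is 9.09%, near the 8.43% of all genes. Plat, the tissue plasminogen activator that cleaves PDGF-C, was at 43.0 and 2.46 RPKM on day 0 and day 2 in Ad-GFP-infected cells and at 7.53 and 1.31 in Ad-Cre-infected cells. Its ratio of Ad-Cre to Ad-GFP on day 0 was -2.51 on the log2 scale, in the direction opposite to that of Pdgfc. Plau, urokinase, was at 21.0 and 0.947 RPKM in Ad-GFP and at 21.5 and 3.31 in Ad-Cre-infected cells. In the Ad-Cre day 0 library, then, Pdgfc was at its highest and Plat was below its Ad-GFP level. Hs6st2, which adds 6-O-sulfate to heparan sulfate, fell with either virus (30.0 to 2.04 RPKM in Ad-GFP, 15.4 to 2.39 in Ad-Cre-infected cells). Of the enzymes that remove it, Sulf1 was at 19.1 and 3.10 RPKM in Ad-GFP and at 24.3 and 15 in Ad-Cre-infected cells, and Sulf2 at 13.5 and 77.1 in Ad-GFP and at 18.9 and 21.2 in Ad-Cre-infected cells. The Ad-GFP library changed from more Sulf1 to more Sulf2, with a smaller shift in Ad-Cre-infected cells.

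The 17 adaptors that bind activated receptors were all above 1 RPKM. From day 0 to day 2, 1 rose (5.88%, beside 8.43% of all genes) and none fell (beside 13.0%) in Ad-GFP-infected cells. In Ad-Cre-infected cells 1 rose (5.88%, beside 9.61%) and 2 fell (11.8%, beside 10.4%). The gene that rose was Pik3r1, a regulatory subunit of phosphoinositide 3-kinase, at 7.37 and 58.7 RPKM in Ad-GFP and at 6.87 and 26.2 in Ad-Cre-infected cells. None of the 17 passed 2.5-fold on day 0 between Ad-Cre and Ad-GFP-infected cells, beside 2.08% of all genes higher and 4.17% lower. On day 2, 3 were lower (17.6%, beside 9.87% of all genes), and the list's median log2 ratio was -0.75. The median of all expressed genes on day 2 was -0.14, and that of transcripts of 4176 bases or more was -0.61. The list was not divided by the length trend.

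Of 13 inhibitors of receptor signalling, 4 rose and 4 fell from day 0 to day 2 in Ad-GFP-infected cells (30.8% each, beside 8.43% and 13.0% of all genes). In Ad-Cre-infected cells none rose and 6 fell (46.2%, beside 10.4% of all genes), and the difference between the viruses was not tested. Lrig1, an inhibitor of receptor tyrosine kinases, was at 23.5 and 106.9 RPKM in Ad-GFP and at 16.5 and 15.6 in Ad-Cre-infected cells. Its Ad-Cre/Ad-GFP log2 ratio on day 2 was -2.78, close to that of Fgfr2. Dusp6, a phosphatase of ERK that FGF signalling induces, was at 2.72 and 0.669 RPKM in Ad-GFP and at 3.92 and 0.714 in Ad-Cre-infected cells, and Dusp5 at 4.33 and 0.603 and at 8.92 and 0.864. Spred3 was at 5.38 and 0.944 RPKM in Ad-GFP and at 3.5 and 1.16 in Ad-Cre-infected cells. These 3 fell with either virus. Il17rd, an antagonist of FGF receptor signalling, was at 3.14 and 0.460 RPKM in Ad-GFP and at 1.13 and 0.560 in Ad-Cre-infected cells, and on day 0 it was lower in the Ad-Cre library (log2 ratio -1.47).

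Of 14 transcription targets above 1 RPKM, 1 rose and 6 fell from day 0 to day 2 in Ad-GFP-infected cells, and 1 rose and 8 fell in Ad-Cre-infected cells. Different genes rose past 2.5-fold, Myc in Ad-GFP-infected cells (18.3 to 92.8 RPKM) and Phlda1 in Ad-Cre-infected cells (13.5 to 34.8 RPKM). Myc also rose in Ad-Cre-infected cells, from 40.9 to 79.3 RPKM, short of 2.5-fold. Phlda1 was at 28.7 and 18.1 RPKM in Ad-GFP-infected cells. With either virus 1 gene is 7.14% of the list, below the 8.43% and 9.61% of all genes. Those that fell are 42.9% and 57.1%, beside 13.0% and 10.4%. Etv4, an ETS factor induced by FGF signalling, had 283 reads on day 0 and 4 on day 2 in Ad-GFP-infected cells and 215 and 11 in Ad-Cre-infected cells. Ccnd1, cyclin D1, was at 19.0 and 0.676 RPKM in Ad-GFP and at 2.92 and 0.847 in Ad-Cre-infected cells. As for Pdgfra, the Ad-Cre/Ad-GFP log2 ratio was far lower on day 0 than on day 2, at -2.71 on day 0 and 0.33 on day 2. Ier3, an immediate early gene, was at 11.5 and 1.72 RPKM in Ad-GFP and at 19.4 and 4.68 in Ad-Cre-infected cells. The targets that fell did so while Fgfr1 and Fgfr2 rose and Pdgfra fell in the same Ad-GFP libraries, and a link between these changes was not tested. At day 2, 4 of the 14 (28.6%) were higher in Ad-Cre-infected cells relative to Ad-GFP-infected cells, beside 9.59% of all genes. None was lower, beside 9.87% of all genes. Among the 4 was Etv4, with 11 and 4 reads. The list median was 0.70, while the genes of all lists had a median of 0.04 and all expressed genes a median of -0.14. These ratios were not divided by the length trend of the Ad-Cre day 2 library.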

How the data were processed

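RNA was extracted with Trizol from 4 cultures and sequenced on an Illumina HiSeq. Per the paper's methods, the authors mapped 50-base reads to NCBI37/mm9 and kept reads overlapping RefSeq exons. For 29082 transcripts the deposited files give an unnormalized whole-number count and, beside it, the RPKM computed by the authors, which is the count over exon length and library size in mapped reads. Mapped reads (17198448 to 22986362) were recovered from counts and RPKM, and 3 reads on a 1 kb transcript correspond to 0.131 to 0.174 RPKM. How the authors treated reads with several matches, and the strand of the kit, are not given in the sources used here.

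A symbol was found for 97.8% of transcripts in a RefSeq gene table of GRCm38.p6, used for names alone. Gene coordinates and exon overlaps are those of GENCODE vM1 on NCBI37/mm9. The coordinates span the whole annotated gene and can exceed the RefSeq transcript, and those of Fgf2 and Fgf10 begin upstream of their RefSeq promoters. Among 50-base windows of the members' longest coding transcripts, blastn 2.17.0 found matches elsewhere in the genome with at most 2 mismatches for 0.76% (Fgf7), 1.72% (Fgf10) and none of the others. Promoters of 7 of the 10 members in the RefSeq table were read.

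Genes above 1 RPKM in at least 1 library entered the counts, a ratio of RPKM past 2.5-fold was called higher or lower, and no test was run. Intervals (scipy 1.17.1) are exact binomial for ratios and shares and exact Poisson for levels. Scaling factors came from edgeR 4.0.16 and DESeq2 1.42.0 in R 4.3.3, and no test of either was run. Other steps used Python 3.11.15. Ratios were computed correctly on simulated data with known folds.

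The members and lists were chosen with earlier results of these data known. Named genes are all members and, from the lists, those past 2.5-fold with at least 100 reads in the higher library, at most 25 by size of the ratio. Myc and Phlda1 are named as well, each as the 1 transcription target that rose past 2.5-fold with a virus. Spry4, Dusp4 and Errfi1 are named as the other inhibitors of receptor signalling that rose past 2.5-fold in Ad-GFP-infected cells. Values of some genes that these rules select are not reported here. The nearest 3 patterns were taken from log2(RPKM + 0.1) of genes above 1 RPKM with at least 100 reads. Alternatives were 15: the sum of counts, TMM and DESeq2 scaling, 2-fold and 4-fold cutoffs, the bound of the interval, a pseudocount of 1 RPKM, thresholds of 0.5 RPKM, of 1 RPKM in Ad-GFP-infected cells, of 20 reads and none, the mean of all transcripts of a gene, division by the trend over length or over length and GC content (medians of 20 bins, 5 rounds for both) and thinning to the smallest library.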

Additional observations from a re-analysis of the deposited data

Results flagged for a closer look

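Pdgfa, Pdgfc and Fgf7 moved in opposite directions under the same contrast. The log2 ratio of day 2 to day 0 of Pdgfa was negative in Ad-GFP-infected cells (-0.91) and positive in Ad-Cre-infected cells (0.39), a difference of 1.29 on the log2 scale. Division by the length trend turned the value in Ad-Cre-infected cells to -0.28, so that both were negative. Pdgfc was higher in Ad-Cre-infected cells relative to Ad-GFP-infected cells on day 0 (1.08) and lower on day 2 (-1.22), a difference of -2.29. Fgf7 was lower in Ad-Cre-infected cells on day 0 (-0.37) and higher on day 2 (2.54), a difference of 2.91. The opposite directions of Pdgfc and Fgf7 held after division by the length trend, with -0.85 for Pdgfc and 2.68 for Fgf7 on day 2. With 1 library per condition these differences were not tested.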

How the results depend on the processing

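No paired analysis was possible because each condition has 1 library and the labels give no replicate numbers. For the same reason no library could be left out of a comparison. All 16 ratios of members past 2.5-fold kept their sign in each of the 8 settings that recompute a ratio. Of 120 counts of members past the cutoff under the alternatives, 103 stayed within 1.5 times the reported count and 17 did not. A 4-fold cutoff left 1 member that rose from day 0 to day 2 with either virus in place of 2, 1 that fell in Ad-Cre-infected cells in place of 3, and 1 member higher in Ad-Cre-infected cells on day 2 in place of 3. Of all genes, 3.79% (Ad-GFP) and 4.3% (Ad-Cre) rose past 4-fold. In Ad-Cre-infected cells 4.75% fell past it, and 4.55% were higher past it on day 2. Fgf2 as the 1 gene higher in Ad-Cre-infected cells on day 0 became 0 with a 4-fold cutoff, the bound of the interval, a pseudocount, a threshold in Ad-GFP-infected cells or 20 reads, and 2 genes with a 2-fold cutoff. Of all genes, 0.852% to 1.56% were higher in the former settings and 3.42% with the 2-fold cutoff. The 2 genes lower on day 0 became 1 with a 4-fold cutoff, the bound of the interval, a pseudocount or division by the length and GC trend, where Fgfr2 was at -1.31, and 4 with no filter. Of all genes, 1.71% to 3.86% were lower in the former settings and 10.9% with no filter. The 1 gene lower on day 2 became 3 with a 2-fold cutoff and 2 with no filter, beside 17.5% and 13.5% of all genes. Divided by the length trend, 5 values short of 2.5-fold turned direction: Pdgfa and Fgf2 in Ad-Cre-infected cells from day 0 to day 2 (0.39 to -0.28 and 0.11 to -0.68), Pdgfra between the day 2 libraries (-0.29 to 0.40) and the ratios of inductions of Pdgfrb (-0.36 to 0.26) and Fgfr1 (-0.31 to 0.25). Depth limits Pdgfb, Fgf2 and Fgf10, which had at most 32 reads.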

Other observations

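Beside the named genes, 4 other FGF ligands were above 1 RPKM in at least 1 library, and they were picked here after their values were seen. Fgf21, a hormone that acts through FGFR1 and β-Klotho, had 3 reads on day 0 and 27 on day 2 in Ad-GFP-infected cells and 1 read on either day in Ad-Cre-infected cells. It was thus highest in the library in which Fgfr1 and Klb were highest. Fgf18 had 16 and 3 reads in Ad-GFP and 20 and 30 in Ad-Cre-infected cells. Fgf11 had 6 and 18 reads in Ad-GFP and 7 and 8 in Ad-Cre-infected cells, and Fgf22 between 10 and 13 reads in every library. Counts as small as these give wide intervals.

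Fgfr3, another FGF receptor, was also picked after its values were seen. It was at 0.685 RPKM on day 0 and 3.39 on day 2 in Ad-GFP-infected cells, and at 2.66 and 3.46 in Ad-Cre-infected cells. Unlike Fgfr1 and Fgfr2 it was higher in Ad-Cre-infected cells relative to Ad-GFP-infected cells on day 0, with a log2 ratio of 1.95, and on day 2 the log2 ratio was 0.03.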
